A study of Mus musculus with 2 samples.

Results

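Camta1 and Cux1 are long transcription factor genes that, for single genes, held many candidate 5-formylcytosine (5fC) sites in a map of mouse embryonic stem cells. The members were all listed cytosines, of any context and strand, in each gene with 2 kb on both sides. The genes were chosen by their measured values, namely the number of sites listed in both libraries, so the counts of such sites are a description and carry no test. Replicate 1 listed 37 member sites of 28569 in all, 27 in Camta1 and 10 in Cux1. Replicate 2 listed 40 of 29650, 30 in Camta1 and 10 in Cux1. The 2 libraries form 1 group of embryonic stem cells, labelled replicates 1 and 2, with no other treatment named and no control library among the samples. In the assay, CLED-seq, 10 μg of genomic DNA was cut to fragments of 300 to 500 bp, the formyl group of 5fC was tagged with biotin, tagged fragments were captured on beads, and the deaminase A3A then converted unlabelled cytosines. A cytosine still read as C thus marks a candidate 5fC, and the share of reads that kept the C is called the level here. The level is a share among captured fragments, not of genomic copies.

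5fC is made by the TET enzymes, which oxidise methylated cytosine in steps, and it can be cut out by the glycosylase TDG and replaced by plain cytosine. In embryonic stem cells it is a rare base and has been studied mainly at CG sites, where most methylation lies. Camta1 encodes a calmodulin-binding transcription activator with a CG-1 DNA-binding domain and is best known from the nervous system. Cux1 encodes a homeodomain protein with CUT repeats, known as a transcriptional repressor and as a regulator of dendrites in upper-layer cortical neurons. Another product of the same gene, CASP, is a Golgi protein. The files hold base calls from DNA, so neither the expression of these genes nor that of stem cell markers was measured.

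In mm10, Camta1 spans 151059523 to 151861768 on chromosome 4 (802246 bp) and Cux1 spans 136248135 to 136567590 on chromosome 5 (319456 bp). Both are transcribed from the minus strand, so the highest coordinate is the start of the gene. All 45 listed positions of Camta1 and all 15 of Cux1 fell between the gene ends, and 0 fell in the flanks. Exons and introns were not part of the annotation used here. The letters of each site are given as 3 bases, beginning with the listed cytosine and read on its own strand. Where listed sites fell in RefSeq promoter windows across the genome, these letters matched the GRCm38 sequence at 679 of 679 sites in replicate 1 and 629 of 629 in replicate 2.

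The promoter windows of both genes are shown because listed cytosines lay near them on the gene's side or upstream, but 0 lay inside. Each runs 5′ to 3′ on the gene's strand, from 250 bases before to 50 bases after the start in the RefSeq table (GRCm38.p6), with CG dinucleotides in capitals. The Camta1 window is chr4:151861719-151862018, minus strand, and the Cux1 window is chr5:136565932-136566231, minus strand.
Camta1: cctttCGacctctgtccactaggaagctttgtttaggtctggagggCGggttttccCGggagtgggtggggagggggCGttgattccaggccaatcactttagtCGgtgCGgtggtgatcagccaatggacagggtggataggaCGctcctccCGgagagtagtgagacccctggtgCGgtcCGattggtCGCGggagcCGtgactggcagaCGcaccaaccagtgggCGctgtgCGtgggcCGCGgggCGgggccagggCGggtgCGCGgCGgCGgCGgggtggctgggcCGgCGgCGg
Cux1: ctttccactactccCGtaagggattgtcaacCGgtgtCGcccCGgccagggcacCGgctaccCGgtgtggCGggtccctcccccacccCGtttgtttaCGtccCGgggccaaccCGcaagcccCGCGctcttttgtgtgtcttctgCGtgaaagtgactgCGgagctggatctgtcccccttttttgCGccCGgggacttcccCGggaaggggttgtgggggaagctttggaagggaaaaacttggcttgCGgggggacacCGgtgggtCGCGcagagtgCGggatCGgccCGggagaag
The Camta1 window held 28 CG dinucleotides and the Cux1 window 25, against a median of 7 over 32817 promoter windows. At least 1 listed site was found in 2.02% of all promoter windows in replicate 1 and 1.89% in replicate 2. An empty window is thus the usual case. Whether the cytosines in these windows were covered is not known, since only cytosines that passed the authors' threshold are listed.

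The site nearest to the start of Cux1 was a CG site with a high level in both libraries. At position 136567367 (CGG, plus strand), 223 bp inside the outermost annotated start and 1386 bp upstream of the start used for the promoter window, 28 of 31 reads kept the C in replicate 1 and again in replicate 2 (90.3%, 95% Wilson interval 75.1 to 96.7). This was the highest level among the Cux1 sites. At position 136566426 (CCG, plus strand), 445 bp upstream of that promoter start, 26 of 33 reads kept the C in replicate 2 (78.8%), and replicate 1 did not list it. Near the start of Camta1 each library listed 1 site, at different positions 6 bp apart. Replicate 1 listed 151860557 (CAG, plus strand), 1211 bp into the gene, with 33 of 38 reads (86.8%). Replicate 2 listed 151860551 (CTG, plus strand), 1217 bp into the gene, with 35 of 41 reads (85.4%). These levels close to the start were thus high in both genes, but each gene had only 2 positions within 10 kb of its start.

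Camta1 had 12 sites listed in both libraries. The libraries shared 44.4% of the Camta1 sites of replicate 1 and 40% of those of replicate 2, and for Cux1 they shared 50% in each. Over all listed sites the shares were 40.4% and 38.9%, near those of the members. The genes were chosen by their number of shared sites, so this comparison carries no test. Listed sites were 0.827% of the cytosines tested in replicate 1 and 0.767% in replicate 2, as the deposited adjusted p-values imply. How many of the tested cytosines lay in these genes is not known. Sites in the members lay outside the site-dense 10 kb windows (10 or more listed sites) in both libraries.

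Of the 12 shared Camta1 sites, 1 was CG, 6 were CHG and 5 CHH, where H is any base but G, and 6 lay on each strand. Among all listed Camta1 sites, 8 of 27 were CHG and 16 CHH in replicate 1, and 12 of 30 and 17 in replicate 2. Over the genome, 7064 of 28569 listed sites were CHG and 19217 CHH in replicate 1, and 7165 of 29650 and 20053 in replicate 2. With so few member sites, this mix is a description only. The shared CG site, at position 151300879 (CGC, minus strand), had the lowest level of the 12, with 9 of 42 reads in both libraries (21.4%, Wilson interval 11.7 to 35.9). The highest stood at position 151507441 (CAC, minus strand), where all 31 reads kept the C in both (Wilson lower bound 89.0%). At position 151556274 (CAG, plus strand) 32 of 34 reads kept the C in replicate 1 and 31 of 33 in replicate 2. At position 151208015 (CCT, plus strand) the counts were 31 of 37 and 31 of 36. These last 3 were the Camta1 sites at or above 80% in both libraries, and they lay 354.3, 305.5 and 653.8 kb from the start. They had different letters, and both strands were among them.

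The other 8 shared Camta1 sites lay between these extremes. At position 151473831 (CAG, minus strand), 25 of 35 reads kept the C in replicate 1 (71.4%) and 23 of 33 in replicate 2 (69.7%). At position 151484137 (CTG, plus strand), the count was 23 of 38 in both (60.5%). These neighbouring sites lay in the middle of the gene. The site at 151691919 (CCT, plus strand) stood at 17 of 30 reads and 18 of 31. The site at 151214356 (CTG, plus strand) stood at 16 of 34 in both (47.1%), and that at 151796812 (CTG, minus strand) at 16 of 34 and 16 of 35. The 3 levels lay within one another's counting intervals. At 151260333 (CTC, minus strand) 14 of 32 reads kept the C in both, at 151793904 (CTC, plus strand) 13 of 30 in both, and at 151201503 (CAG, minus strand) 13 of 34 in both. Those 3 were the lowest after the CG site, from 38.2% to 43.8%.

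Cux1 had 5 shared sites, of which 2 were CG and 3 CHH, and the counts were identical in both libraries at each of them. Besides the CG site near the start, position 136254046 (CCA, minus strand) was high, with 29 of 33 reads (87.9%, Wilson interval 72.7 to 95.2). It lay 313.5 kb from the start, near the far end of the gene, and the second CG site, at 136255218 (CGT, minus strand), lay 312.4 kb from it, with 16 of 33 reads (48.5%, 32.5 to 64.8). Position 136366867 (CCT, plus strand) stood at 15 of 34 reads (44.1%) and position 136315718 (CTT, plus strand) at 9 of 32 (28.1%). The counted levels of the 2 CG sites of Cux1 thus differed, and their Wilson intervals did not overlap. These intervals cover counting error only, and a difference between sites was not tested.

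**Figure D1:**
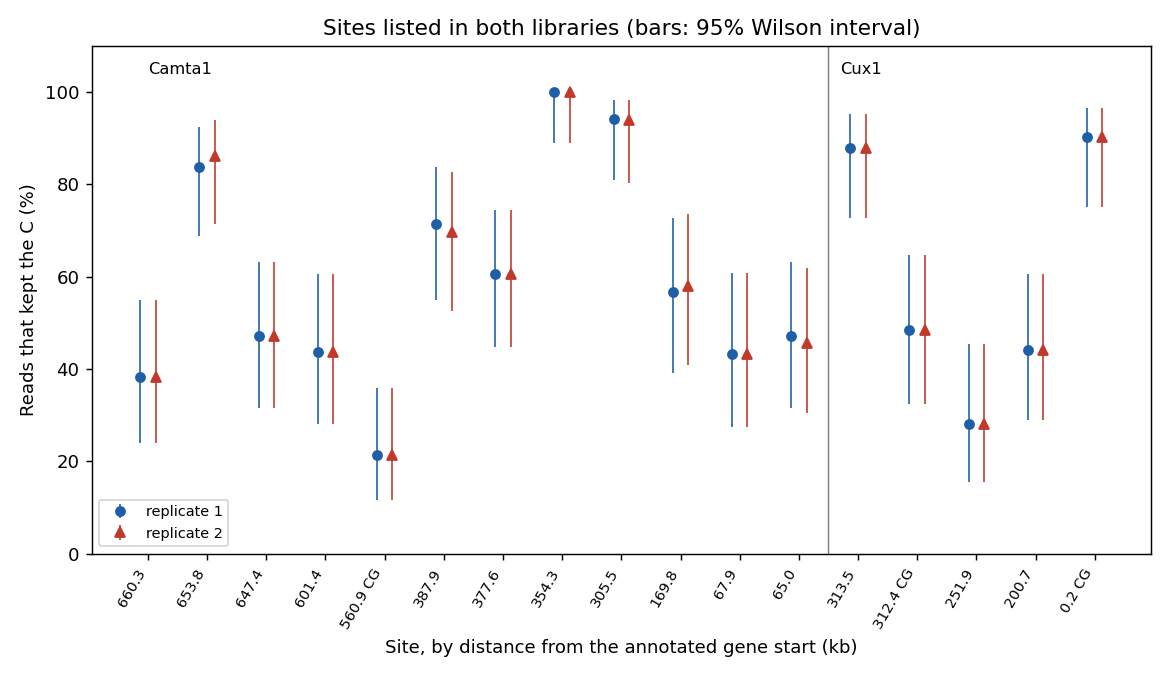
Level (percent of reads that kept the C) at the 12 Camta1 and 5 Cux1 sites listed in both libraries, ordered by chromosome position and labelled by distance from the annotated gene start in kb (CG marks a CG site); circles are replicate 1, triangles replicate 2, and bars are 95% Wilson intervals. The 2 libraries lie within 2.33 points of each other at every site, while sites range from 21.4% to 100%.

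At shared sites the libraries differed by less than the sampling noise, with a chi-square per degree of freedom of 0.00796 over 16 member sites (at the other every read kept the C) and of 0.0611 over all shared sites, where independent reads would give values near 1. Both counts were identical at 7 of the 12 shared Camta1 sites and at 5 of the 5 Cux1 sites, against 70.6% of all 11542 shared sites. At the other 5 Camta1 sites the depths differed by at most 2 reads. By Fisher's exact test, run two-sided on the counts of each site and adjusted by Benjamini-Hochberg over all shared sites, 0 of the 17 member sites differed between the libraries, and 0 had an unadjusted p under 0.05. Across all shared sites the test called 0.026%. The libraries were therefore counted as 1 sample at these sites, no SD between them is given, and their agreement is not independent evidence for a level. Whether the cells came from separate cultures is not stated in the labels.

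Listed sites were spread along the whole of Camta1. When the gene was cut into 10 equal segments of 80.2 kb from its start, each held at least 1 site in each library. Segments 8 and 9, toward the far end, held 11 of the 27 sites of replicate 1 and 9 of the 30 of replicate 2, including 4 shared sites. The longest stretch with no listed position in either library ran for 101746 bp, from 151556274 to 151658020. The median distance between neighbouring positions was 9530.5 bp. In Cux1 it was 12594.5 bp, and the longest empty stretch there was 82427 bp, from 136425571 to 136507998. Coverage along the genes is not known, so an empty stretch does not show that 5fC was missing there.

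**Figure D2:**
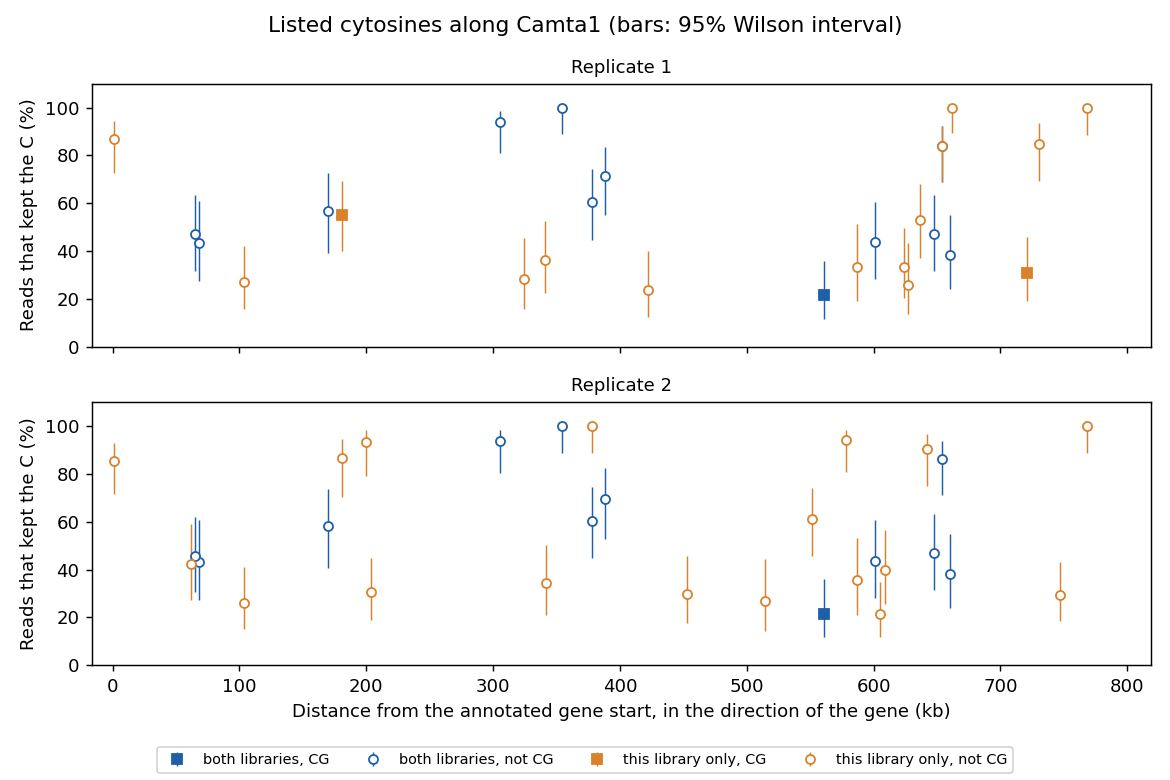
Level (percent of reads that kept the C) of each listed cytosine against its distance from the annotated start of Camta1 in kb, for replicate 1 (top, 27 sites) and replicate 2 (bottom, 30 sites); blue marks sites listed in both libraries, orange those listed in 1, filled squares CG sites, and bars are 95% Wilson intervals. Sites run along the whole gene with levels from 21.3% to 100%.

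**Figure D3:**
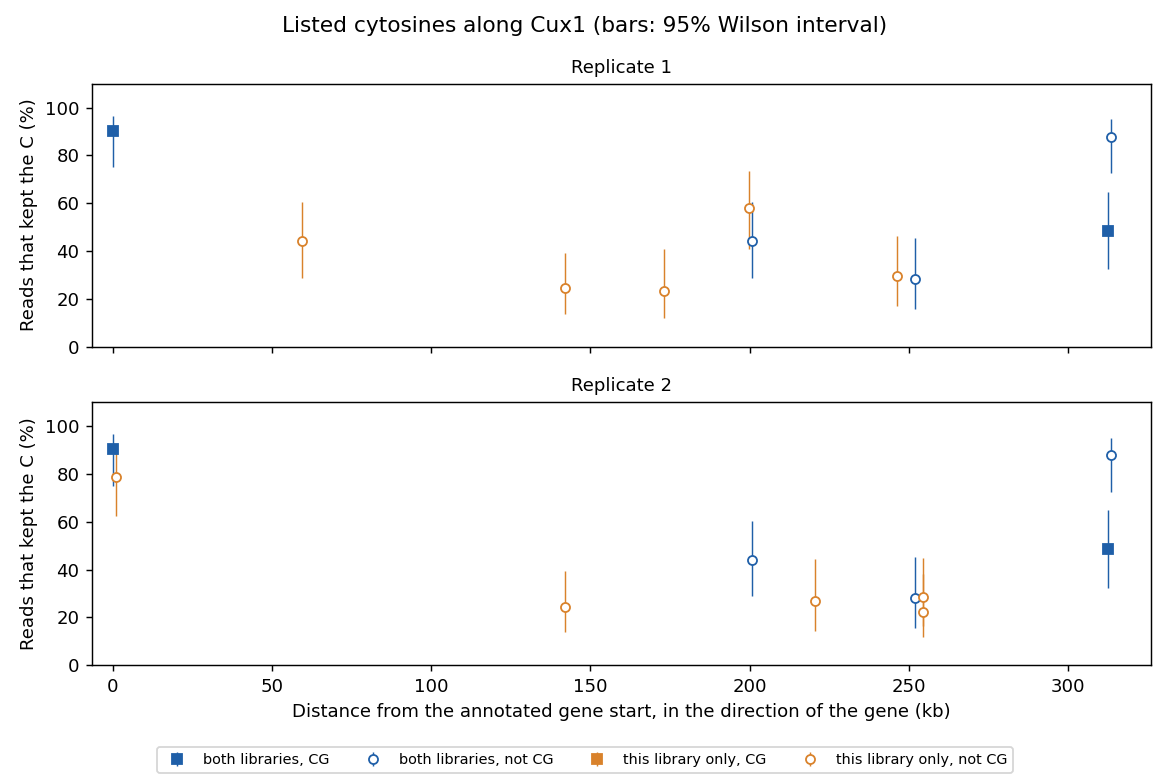
The same plot for Cux1, with 10 sites in each library. The CG site nearest to the start and the site 313.5 kb away, both listed in both libraries, stand highest in each panel, at 90.3% and 87.9%.

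Most listed cytosines of both genes lay outside CG. In Camta1, 3 of 27 sites were CG in replicate 1 (11.1%, exact interval 2.35 to 29.2) and 1 of 30 in replicate 2 (3.33%, 0.0844 to 17.2). In Cux1, 2 of 10 were CG in each library (20%, 2.52 to 55.6). Over all listed sites the CG share was 8.01% and 8.20%, inside each of these intervals. The CG share of the cytosines tested is not known, so these shares show neither enrichment nor depletion. An unconverted cytosine cannot be told apart from a modified one in these files, so all members are candidates only.

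The other CG sites were both in Camta1, and replicate 1 alone listed them. Position 151680833 (CGG, minus strand) stood at 22 of 40 reads (55%, Wilson interval 39.8 to 69.3), inside the long noncoding RNA gene Gm38442. Position 151140634 (CGT, minus strand) stood at 13 of 42 reads (31.0%, 19.1 to 46.0). With them, Camta1 had 3 CG positions in all, and Cux1 had 2. By the base after the cytosine, Camta1 had 9 CT, 8 CC and 7 CA sites in replicate 1 and 13 CT, 10 CA and 6 CC sites in replicate 2. Cux1 had 3 CT, 3 CC and 2 CA sites in replicate 1 and 2 CT, 5 CC and 1 CA in replicate 2. Over all listed sites CT made up 31.0% and 30.7%, CC 28.6% and 29.2%, and CA 32.4% and 31.9%. The order of the pairs thus differed between the genes and, in both, between the libraries. The 25 Camta1 positions on the gene's own strand stood against 20 on the other, and in Cux1 the numbers were 9 and 6.

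The median level of the listed Camta1 sites was 47.1% in replicate 1 and 46.4% in replicate 2, close to 46.7% and 46.2% over all sites. For Cux1 it was 44.1% and 36.3%, over 10 sites each. Levels of at least 80% were reached by 8 of 27 and 10 of 30 Camta1 sites and by 2 of 10 Cux1 sites in each library, against 22.0% and 21.5% of all sites. Every read kept the C at 3 of 27 and 3 of 30 Camta1 sites (11.1% and 10%) and at 0 Cux1 sites, against 3.97% and 3.91% of all sites. Low levels are missing by construction, since each listed site had to pass the authors' threshold at a depth of at least 30 reads, and the lowest member level was 21.3% (10 of 47 reads at Camta1 position 151256769, CTA, minus strand, replicate 2). Median depth was 34 reads at Camta1 sites and 33 at Cux1 sites, and the deepest member had 51.

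Sites listed in 1 library numbered 33 in Camta1 (15 in replicate 1, 18 in replicate 2) and 10 in Cux1 (5 in each). Their median level was 40% in Camta1 and 27.6% in Cux1. All reads kept the C at 4 of the Camta1 sites, namely 151093204 (CAC) with 30 reads and 151199867 (CCA) with 32 reads in replicate 1, and 151093319 (CTG) with 30 reads and 151484065 (CAG) with 31 reads in replicate 2, all on the minus strand. At the low end of Camta1 in replicate 1 among these was 151439520 (CTG, plus strand), with 8 of 34 reads (23.5%). In Cux1 the highest single-library site of replicate 1 was 136367939 (CAG, plus strand), with 18 of 31 reads (58.1%), and the lowest was 136394339 (CTG, minus strand), with 7 of 30 (23.3%). The lowest of replicate 2 was 136313134 (CCA, minus strand), with 8 of 36 (22.2%). No level below the threshold is listed, so absence from a library does not show a lower level there.

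Several of the single-library sites had a counterpart with nearly the same counts about 100 bp away in the other library. In Cux1, replicate 1 listed 136425571 (CTG) and replicate 2 listed 136425455 (CAA), 116 bp apart on the minus strand, and at both 10 of 41 reads kept the C. In Camta1 the fully unconverted sites 151093204 and 151093319, with 30 of 30 reads each, lay 115 bp apart. The counts at each of these pairs were the same although the letters differed. A further pair in Camta1, 151274856 (CTC, minus strand, 10 of 30 reads in replicate 1) and 151274961 (CAG, plus strand, 11 of 31 in replicate 2), lay 105 bp apart. Another, 151758508 (CCA, 11 of 41 reads in replicate 1) and 151758391 (CCA, 11 of 42 in replicate 2), lay 117 bp apart on the plus strand. The last of these pairs shared its letters as well as its strand. Which position of such a pair holds the retained C was not tested, so the listed position, context and single-library status of these sites are uncertain.

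Counting such pairs (at most 120 bp apart, both counts within 1 read), 3 of the 15 Camta1 sites of replicate 1 alone had a partner, and 1 of the 5 of Cux1. That is 20% in both genes, and 20.8% of the 17027 such sites over the whole table had one. Pairs with less equal counts were 151520452 and 151520351 (13 of 36 and 13 of 38 reads, 101 bp apart), the pair near the start of Camta1, and 151680833 and 151680869 (22 of 40 and 26 of 30 reads, 36 bp apart). Within 1 library, replicate 1 listed the adjacent Camta1 positions 151208015 and 151208016 with the same counts, 31 of 37 reads, while replicate 2 listed the first of them. Replicate 2 listed the Camta1 positions 151484065 and 151484137, 72 bp apart, at 31 of 31 and 23 of 38 reads, and the Cux1 positions 136313134 and 136313234, 100 bp apart, at 8 of 36 and 10 of 35.

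Several noncoding genes overlap Camta1, and some listed sites fell in them. Of 10 such long noncoding RNA genes in the Camta1 window, Gm38442 (151638629 to 151723298) held the most, with 2 sites in replicate 1, 4 in replicate 2 and 1 shared, at 151691919. Gm42357, which runs over the start of Camta1, held the pair at 151860551 and 151860557, and 9230110K08Rik, which begins beside that start, held 0. Gm46899 held the fully unconverted pair at 151093204 and 151093319, Gm30422 held 1 site of replicate 2 and Gm45960 held 1 site of replicate 1. Gm52711, Gm30344, Gm52712, Gm52710 and the gene models Gm13090 and Gm38529 held 0. Within Cux1, Gm16599 (136388865 to 136438811) held 2 sites in replicate 1 and 1 in replicate 2. The microRNA gene Mir721, which lies inside Cux1, and the long noncoding RNA gene Gm30408 held 0. The windows also touch the ends of Vamp3, a gene of vesicle fusion, and Sh2b2, a gene of an adaptor protein, with 0 member sites in either.

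Both genes had more listed sites per length than the genome as a whole. Camta1 held 3.35 sites per 100 kb in replicate 1 and 3.72 in replicate 2, and Cux1 held 3.09 in both. The rate was 1.05 and 1.09 over the genome, counted up to the last annotated gene of each chromosome, and 1.46 and 1.52 over protein-coding genes with their flanks. Chromosome 4 as a whole stood at 1.20 and 1.21 and chromosome 5 at 1.30 and 1.32. Against the genome, the ratio was 3.19 and 3.42 for Camta1 and 2.95 and 2.84 for Cux1. The genes were chosen for their sites, and coverage was not available per gene, so these ratios carry no test.

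The rates of both genes also lay above the middle of other long genes. Among 989 protein-coding genes of at least 200 kb, the median was 0.312 shared sites per 100 kb, against 1.49 for Camta1 and 1.55 for Cux1. Of these genes, 34 had a higher rate than Camta1 and 28 a higher rate than Cux1. In number of shared sites, 3 of 21883 protein-coding genes had more than Camta1 and 1 had as many, while 97 were longer. For Cux1, 34 had more shared sites, 43 had as many and 509 were longer. Both genes were chosen by their number of shared sites, so these high ranks follow from the choice and carry no test.

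Of the relatives examined, only Cux2, the paralog of Cux1 expressed in upper-layer neurons, held shared sites. It had 4 in 192 kb, or 2.04 per 100 kb, and their median level was 44.6% in both libraries, with 12 sites in replicate 1 and 7 in replicate 2. Camta2, the paralog of Camta1, held 0 sites in either library, but it is only 18.7 kb long. The other CUT genes examined, Onecut1, Onecut2, Onecut3 and Satb1, held 0 shared sites and at most 1 site per library each. In all, 1 of these 6 genes had a shared site and 0 had a shared CG site. Cux2 is the longest of them, and the others are 18.7 to 97.1 kb long. At 0.312 shared sites per 100 kb, the median of the long genes, 0 is the usual count at such lengths. Cux2, at 2.04 per 100 kb, lay above that median. Whether Cux2 differs from its relatives was not tested.

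Among 40 other genes listed as long transcription factor genes (57.5 to 954 kb), 33 held at least 1 shared site and 8 a shared CG site. The share of all protein-coding genes that held a shared site was not counted, so these counts are a description only. The median of the 40 genes was 1 shared site and 0.450 per 100 kb. Among the 989 protein-coding genes of at least 200 kb, the median was also 1 shared site, and 0.312 per 100 kb. Of the 40 genes, 5 had a higher rate than Camta1. Prdm16, a regulator of brown fat and neural stem cells, had 5 shared sites in 321 kb, as many as Cux1 at nearly the same length, and 0 of them were CG. Rora, a nuclear receptor gene, also had 5, in 735 kb. Foxp1, a forkhead gene, had 4 in 597 kb and Nfix, a nuclear factor I gene, 3 in 96.5 kb. Camta1, which was chosen by its number of shared sites, was above every gene of both lists in that number, with 12. Foxp4, at 3.25, had the highest rate per 100 kb of these genes, from 2 shared sites.

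**Figure D4:**
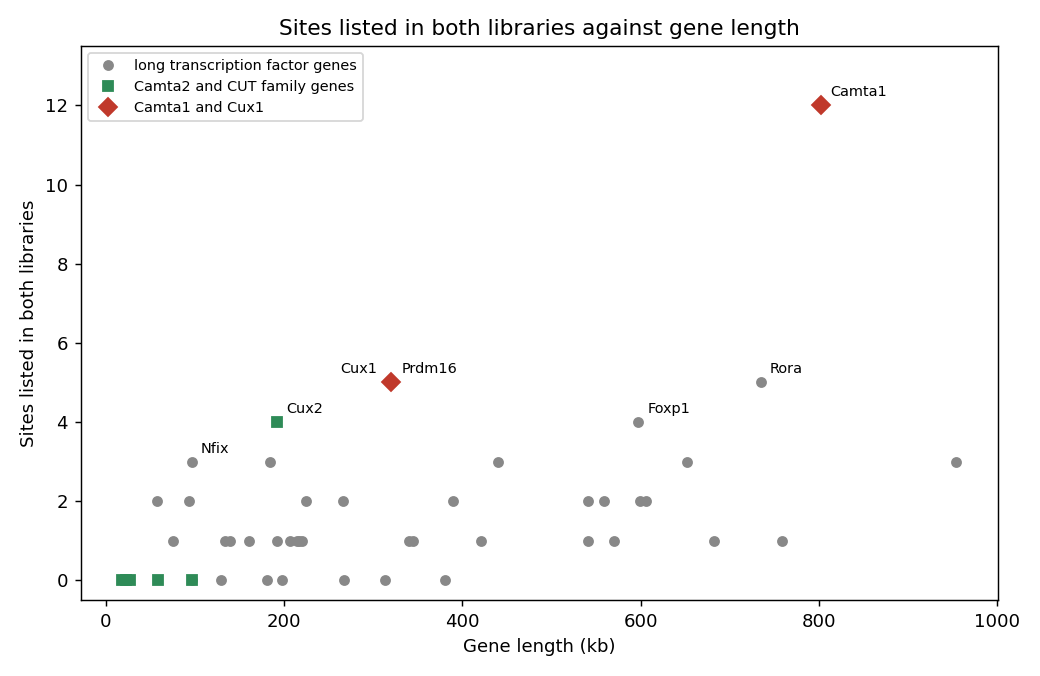
Number of sites listed in both libraries (vertical axis) against gene length in kb (horizontal axis) for Camta1 and Cux1 (red), Camta2 and the CUT family genes (green) and 40 other genes listed as long transcription factor genes (grey, 57.5 to 954 kb). Camta1 stands at 12, and Cux1 lies at the same place as Prdm16, at 5 sites and nearly the same length.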

How the data were processed

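The authors deposited, per the file headers, raw counts of reads that kept the C, reads that did not, and their sum (depth) for each listed cytosine of the 2 libraries. Per the same headers, the authors deposited a p-value per cytosine and its Holm and Benjamini-Hochberg adjustments. The submitters' processing notes list Bismark 0.23.1, Bowtie2 2.4.5, SAMtools, cutadapt 4.1, FastQC 0.11.9 and the build mm10, without roles. No source used here states whether duplicates were removed. Each listed site was covered by 30 reads or more, with an adjusted p under 0.05. Each deposited p was the point probability of its count under a binomial with a background of 6.93%. The probability of that count or more was at most 1.32 times larger at member sites and never above the largest listed p.

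Level was computed as reads that kept the C over depth, with 95% Wilson intervals, and exact (Clopper-Pearson) intervals for CG shares. Reads were amplified by PCR and carry no molecular identifiers, so the intervals cover counting error only. Sites were matched by chromosome, position and strand. Fisher's exact test ran over all shared sites. Its code was checked on simulated libraries with independent reads. The libraries here agree more closely than such reads would, so that check does not bear on the result. Gene ends and promoter sequences came from RefSeq tables of GRCm38. The members, the gene lists and the rule for named items were chosen with earlier results of these data known. The rule names all shared member sites, single-library CG sites, the highest and lowest site per gene and library, both gene lists (4 of the long list with most shared sites, ties by symbol) and overlapping genes. An item of the gene lists is not reported here. Foxp4 was named after its value was seen, as were the pairs and the adjacent positions. The alternatives tried were no flanks, stricter p thresholds, higher minimum depth or level, looser matching, each library alone, the genome rate outside dense windows and the mid-p form of the test. Python 3.11.15, numpy 2.4.6, pandas 2.3.3, scipy 1.17.1 and matplotlib 3.10.9 were used.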

Additional observations from a re-analysis of the deposited data

How the results depend on the processing

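A depth of at least 40 reads, which few member sites reach, left 5.5 Camta1 sites per library (mean of the libraries) and 1 shared site, and 1 Cux1 site per library and 0 shared. At that depth the median level was 29.2% in Camta1 and 24.4% in Cux1, and the CG share was 44.6% and 0%, so these values rest on very few sites. With an adjusted p under 0.01 the Camta1 median level was 53.2%, and under 0.001 it was 57.6%, and 66.0% in Cux1 with 5.5 sites per library. Low levels drop out under a stricter threshold by construction. Against the genome rate outside dense windows the Cux1 ratio was 2.97, and against the whole genome it was 2.89 (means of the libraries). This small change went beyond the SD of the libraries. That SD is a weak yardstick, since both list 10 Cux1 sites and they are not independent. The other 49 values tried stayed within 1.5 times of a count or within the spread used for the rest. These include leaving out each replicate, with 27 to 30 Camta1 sites, 10 Cux1 sites, median levels of 46.4% to 47.1% and 36.3% to 44.1%, CG shares of 3.33% to 11.1% and 20%, and ratios of 3.19 to 3.42 and 2.84 to 2.95. Each library necessarily lies within the SD of both, so leaving one out could not move a median or ratio. Counting near-equal pairs as shared gave 15 Camta1 and 6 Cux1 sites. No paired analysis was possible because there is 1 group.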

Other observations

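In Cux2, each library listed a CG site at the same CG dinucleotide on chromosome 5, but on opposite strands. Replicate 2 listed the plus strand cytosine at position 121997302 (CGT), where 20 of 35 reads kept the C (57.1%). Replicate 1 listed the minus strand cytosine at 121997303 (CGC), where 20 of 34 did (58.8%). The 4 shared Cux2 sites were all CHH. The highest, at position 121928794 (CCT, minus strand), kept the C in 30 of 30 reads in both libraries, and the lowest, at 121944187 (CCT, minus strand), in 9 of 31 and 9 of 30. These sites were named after their values were seen.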
